A study of Mus musculus with 106 samples.

Results

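The Gstm genes encode the mu class of cytosolic glutathione transferases. They were followed here by symbol as 7 members, Gstm1 to Gstm7, among 21887 protein-coding genes of the mouse annotation. All 7 were found, and they lie side by side on chromosome 3. For each member, ChIP-seq peaks were counted when their centre fell in the gene body or within 10 kb of either end. The percent of the gene body inside regions of gained accessibility was also measured. The cluster was chosen by those same values, above all the coverage of Gstm1 and Gstm3 after GW4064. The values are therefore a description, and no test is attached to them.

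Glutathione transferases join the tripeptide glutathione to electrophilic compounds, among them drugs and products of lipid oxidation, which are then exported from the hepatocyte. The mu class is one of the abundant cytosolic classes of the liver, and Gstm1 is a major hepatic member in the mouse. Genes of this family are classical targets of the stress factor Nrf2 and of the xenobiotic receptors CAR and PXR. Foxa2 is a forkhead factor that binds nucleosomal DNA at liver enhancers, while FXR (bile acids), LXR alpha (oxysterols) and PPAR alpha (fatty acids) are nuclear receptors that bind as partners of RXR.

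The study collected livers of WT mice and of mice lacking Foxa2 in the liver, 4 h after a ligand or vehicle. The ligands were the FXR agonist GW4064 and the LXR agonists GW3965 and T09. The mutant is Foxa2loxP/loxP;Alfp.Cre and WT animals were littermate controls, per the labels of the samples that state them. Alfp.Cre is driven by albumin and alpha-fetoprotein regulatory sequences and acts in cells of the fetal liver lineage. Mice were 8 to 12 weeks old in the ATAC-seq, Foxa2 and FXR experiments. They were 3 months old and of the C57BL/6 strain in the LXR and PPAR experiments. Sample labels give oral gavage where they give a route, while the series text speaks of injection.

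Of 106 samples in 45 groups, 27 deposited peak lists were used, 1 for each ChIP group or ATAC comparison. There were 5 Foxa2 lists (1 sample each, where the series text gives 3 replicates), all of WT: vehicle, GW3965 and T09 of one experiment, and GW4064 with its own vehicle of another. FXR was mapped in both genotypes with vehicle and GW4064 (4 lists, 2 samples each). LXR was mapped in both genotypes with vehicle, an agonist labelled GW without a number, and T09 (6 lists, 1 sample each in WT and 3 in the mutant). PPAR was mapped in both genotypes with vehicle, GW3965, T09 and GW4064 (8 lists, 2 samples each). The 4 ATAC-seq lists hold regions called higher with ligand than with vehicle: GW3965 and T09 in WT (2 samples per arm), and GW4064 in WT and in the mutant (3 samples per arm). They are called gained regions here. The 37 RNA-seq samples were not analysed here, and neither were 8 ATAC-seq samples of mutant liver from the LXR agonist experiments, so transcript levels are not reported.

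Each group or comparison has 1 list, so no value below has a spread between replicates, and no difference between lists could be tested. Read depth behind the lists is unknown. The livers were bulk tissue, in which a change in the number of cells of a type and a change of signal per cell cannot be told apart. The Gstm genes are similar to each other in sequence, and how reads that matched more than 1 of them were placed is not given in the sources used here.

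On GRCm38.p6 (mm10), the cluster ran for 149 kb from the start of Gstm5 to the far end of Gstm4. Gstm5 (chr3:107895854-107898685), best known from brain and testis, is the lone member on the plus strand. The other members are on the minus strand in the order Gstm7 (chr3:107926334-107931877), Gstm6 (chr3:107938847-107953641), Gstm3 (chr3:107963696-107969174), Gstm2 (chr3:107981702-107986420), Gstm1 (chr3:108012250-108017973) and Gstm4 (chr3:108030571-108045179). With 10 kb added at both ends the window was 169 kb long. Flanks of neighbours overlap, so a peak between 2 members was counted for both. Exons and introns were not resolved here.

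RefSeq promoters were found for all 7 members, as 12 windows of 300 bases (250 before and 50 after a start site). The 250 bases before the start site are shown for 3 members that stand for different patterns. The capitals mark bases inside a Foxa2 peak of the GW3965 list. Gstm1 (chr3:108017974-108018223, minus strand) had such a peak at its start, with 158 of the 250 bases inside it. Gstm3 (chr3:107969175-107969424, minus strand) had no Foxa2 peak there but lay in a gained region with GW4064 in both genotypes. Gstm2 (chr3:107986421-107986670, minus strand) had no Foxa2 peak there and lay in a gained region with GW4064 in WT alone.
Gstm1: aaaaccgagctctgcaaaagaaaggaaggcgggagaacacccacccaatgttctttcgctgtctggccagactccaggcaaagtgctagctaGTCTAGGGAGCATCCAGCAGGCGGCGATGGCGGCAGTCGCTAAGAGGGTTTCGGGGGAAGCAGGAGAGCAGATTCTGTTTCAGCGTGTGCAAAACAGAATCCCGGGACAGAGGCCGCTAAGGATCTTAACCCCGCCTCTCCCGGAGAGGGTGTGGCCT
Gstm3: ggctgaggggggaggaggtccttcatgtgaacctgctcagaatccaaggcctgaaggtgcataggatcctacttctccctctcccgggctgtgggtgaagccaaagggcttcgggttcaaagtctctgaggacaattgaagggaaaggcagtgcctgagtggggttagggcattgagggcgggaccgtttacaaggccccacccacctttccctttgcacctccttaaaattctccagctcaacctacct
Gstm2: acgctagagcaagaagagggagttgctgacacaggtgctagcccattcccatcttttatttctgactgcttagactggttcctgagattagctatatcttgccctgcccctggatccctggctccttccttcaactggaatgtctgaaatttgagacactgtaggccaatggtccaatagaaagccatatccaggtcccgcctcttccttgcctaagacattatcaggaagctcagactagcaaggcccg

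The 12 windows gave 60 pairs from different members. Identity in a global alignment was 45.3% to 59.8%, with a median of 50.5%, and the longest run of letters in common was 7 to 16 bases. The window of Gstm3 and the window at the inner start site of Gstm1 were the most alike on both measures. Motifs were searched as exact letters on both strands. The antioxidant response core TGACNNNGC, bound by Nrf2 with small Maf proteins, was found in 2 of the 12 windows and in 13.0% of 21263 promoters. The matches are shown with their neighbouring bases, the motif in capitals.
Gstm5, chr3:107895812-107895820: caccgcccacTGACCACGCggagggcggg
Gstm7, chr3:107931735-107931743: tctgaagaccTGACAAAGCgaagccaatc

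The Gstm7 match lay inside the Foxa2 peak of the GW3965 list and inside the gained regions of GW3965 and of GW4064 in WT. The Gstm5 match lay in no Foxa2 peak and in no gained region. The forkhead motifs TGTTTAC and TATTTAC were in none of the 12 windows (3.01% and 2.59% of all promoters). The nuclear receptor half-site AGGTCA was in 1 window, at the inner of the 2 annotated start sites of Gstm1 (chr3:108017818-108017823), and in 14.7% of all promoters. Exact repeats of this half-site were also searched. The inverted repeat named IR1, to which FXR binds, was in no member window and in 0.00470% of all promoters. The direct repeats named DR4 (LXR, 0% of all promoters) and DR1 (PPAR, 0.0470%) were in no member window either. A missing match says only that these letters are not in the window.

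Foxa2 was found at the cluster in all 5 lists, and its peaks were more numerous in the lists of livers given a ligand. With vehicle, 2 of 7 members had a peak, Gstm1 and Gstm4, against 12.1% of all genes. With GW3965, 6 of 7 had one, against 36.9%. With T09 also 6 of 7 did, against 39.2%. Gstm5 was the member left out both times. In the other experiment, 1 of 7 members (Gstm1) had a peak with vehicle, against 17.8% of all genes. With GW4064, 4 of 7 (Gstm3, Gstm2, Gstm1 and Gstm4) did, against 38.8%. These values chose the cluster and nothing is read from the counts beyond their size. The ligand lists are also longer throughout the genome: 21245 (GW3965) and 25318 (T09) peaks against 4348, and 22666 (GW4064) against 7306.

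Peaks of the 5 lists in the window merged into 12 Foxa2 sites. A single site was in all 5 lists, chr3:108013231-108013530 inside Gstm1, with its centre 4593 bp downstream of the start site. Another 2 sites were in 3 lists. One of them, chr3:107972143-107972654, lies 3224 bp before Gstm3 and was in the GW3965, T09 and GW4064 lists. It is the only Foxa2 site within 10 kb of Gstm3 or of Gstm2, so both members were counted through it. The other, chr3:108032267-108032514 inside Gstm4, was in the vehicle, GW3965 and GW4064 lists. Of the remaining sites 3 were in 2 lists and 6 in 1 list, and 10 of the 12 were in at least 1 ligand list and in no vehicle list. Over the genome this held for 82.3% of 47359 merged Foxa2 sites, so the cluster's share is near the background.

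The number of peaks in the window was 2 with vehicle, 10 with GW3965, 5 with T09, 1 with the vehicle of GW4064 and 5 with GW4064. Both vehicle peaks overlapped a GW3965 peak, as 98.8% of the whole vehicle list did, and 1 of the 2 overlapped a T09 peak, against 97.1%. The GW3965 and T09 peaks overlapped at 3 sites, which are 30.0% of the GW3965 peaks and 60.0% of the T09 peaks. Over the whole lists these shares were 58.1% and 48.8%. With 10 and 5 peaks, and no replicate list of either condition, no difference from the genome is read from them.

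Peaks at the start sites were mostly of the GW3965 list. It had a peak on 7 of the 12 promoter windows, those of Gstm7, Gstm6, Gstm1 and Gstm4, against 6.68% of all promoters. The T09 list had a peak on 1 window, at Gstm6 (3.03% of all). None of the 12 windows had a peak with vehicle (0.969%), with the vehicle of GW4064 (0.955%) or with GW4064 (2.75%). The Gstm1 promoter peak, chr3:108017924-108018131, contains the capital letters printed above. Start sites of 1 member lie close together, so several windows share a peak.

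The first 500 entries of each Foxa2 list held none of these peaks. These lists carry no q, and what their order stands for is not given in the sources used here. The window held 1 to 10 peaks of lists with 4348 to 25318 entries, so their absence from the first 500 says little. Beyond the window, the next Foxa2 peak after Gstm4 was 22.5 kb from its end in the vehicle, T09 and GW4064 lists and 22.6 kb in the GW3965 list. It was 243 kb away in the list of the vehicle of GW4064. On the Gstm5 side the next peak was 105 kb from the gene in 4 lists and 30.2 kb in the GW3965 list.

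**Figure D1:**
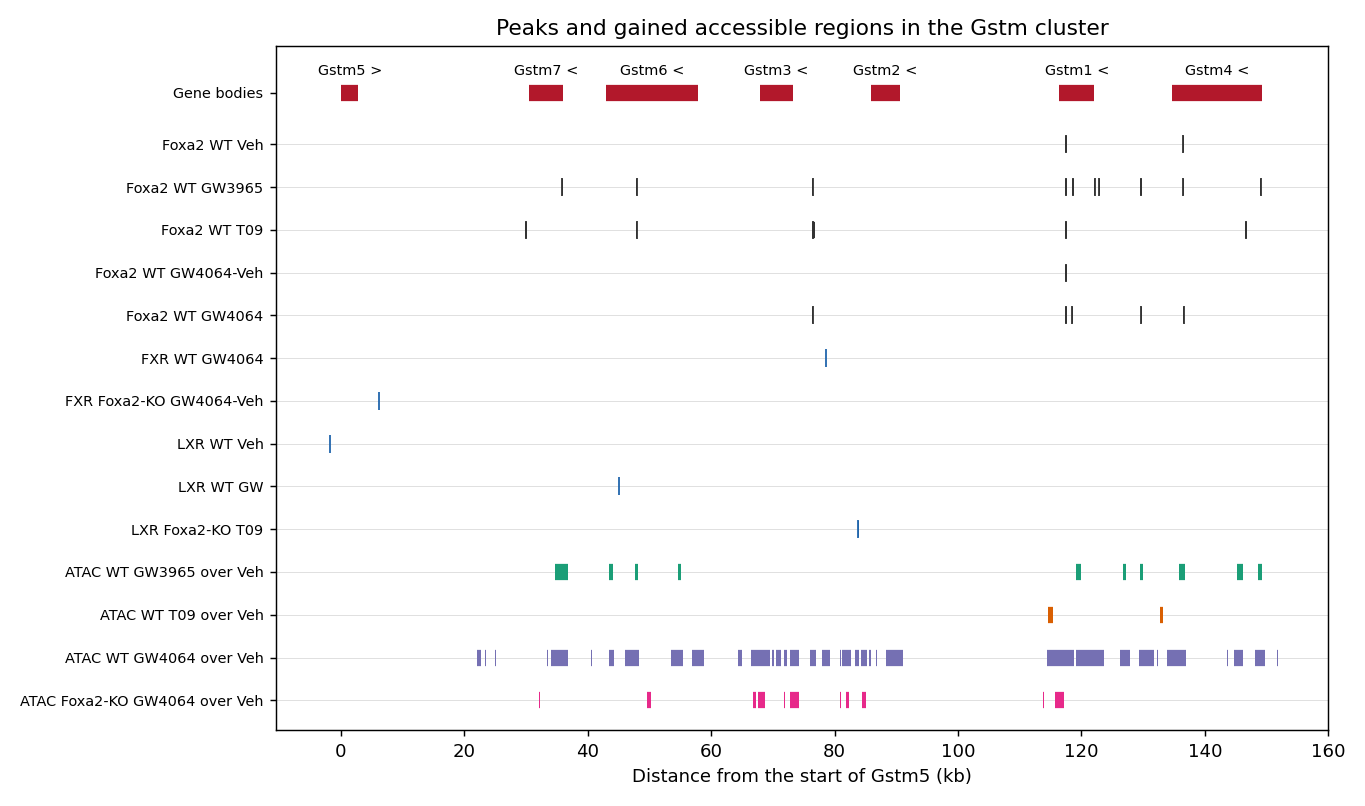
Peaks and gained regions of the Gstm window drawn to scale against distance from the start of Gstm5 (kb), with 1 row per list; lists with no peak there are left out, ticks mark ChIP peak centres, and the narrowest gained regions are barely visible. The 38 regions gained with GW4064 in WT run from Gstm7 to Gstm4, whereas 12 were gained in the mutant and 3 with T09.

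With GW4064, which activates the bile acid receptor FXR, gained accessibility covered much of the cluster in WT liver. The percent of the gene body in gained regions was 95.3% for Gstm1, 69.5% for Gstm3, 50.7% for Gstm2, 42.4% for Gstm6, 40.8% for Gstm7 and 34.8% for Gstm4, and 0% for Gstm5. At a limit of 25% of the body, 6 of 7 members were covered, against 1.94% of all genes. Among the 6763 genes as long as the members the share was 3.58%. Any base in a gained region was found for 6 of 7 members, against 43.8% of all genes. The median over the members was 42.4%, where the median of all genes was 0%. By this coverage Gstm1 ranked 42 of 21887 genes, Gstm3 87, Gstm2 144, Gstm6 194, Gstm7 207 and Gstm4 270.

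The gained bases were in 38 regions with a median width of 832 bp, against 150 bp in the whole list. They added up to 46809 bases, 27.6% of the window. The list was deposited without q or enrichment, and what its order stands for is not given in the sources used here. The earliest entry touching a member was entry 7 for Gstm3, entry 13 for Gstm1 and entry 34 for Gstm4. It was entry 143 for Gstm2, entry 171 for Gstm6 and entry 1291 for Gstm7, in a list of 60528. The cluster held 7 of the first 100 and 14 of the first 500 entries.

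The longest regions were at Gstm1. Entry 13, chr3:108010310-108014719, covered the far part of Gstm1 and ran past its end, and entry 131, chr3:108014991-108019518, covered the rest with the start site. At Gstm3, entry 7 (chr3:107962359-107965442) covered the far end of the gene and entry 25 (chr3:107968626-107970094) its start site. At Gstm4, entry 34 (chr3:108029787-108032784) lay at the far end and contained 1 of the 3 Foxa2 sites of that gene, chr3:108032267-108032514. Coverage was therefore found both at starts and at far ends of the genes. Between Gstm3 and Gstm2, entries 27 (chr3:107973774-107975065) and 21 (chr3:107977109-107978489) lay outside both gene bodies. In all, 11 of 12 promoter windows, all but that of Gstm5, were wholly inside gained regions, against 5.65% of all promoters.

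Coverage did not stop at the gene ends. In the 10 kb before the gene it was 57.1% for Gstm1, 49.6% for Gstm3, 30.4% for Gstm6 and 19.4% for Gstm7, and 5.13% for Gstm2 and 5.64% for Gstm4. In the 10 kb after the gene it was 58.7% for Gstm2, 51.0% for Gstm4, 32.2% for Gstm6, 30.4% for Gstm3, 19.4% for Gstm1 and 9.20% for Gstm7. Both flanks of Gstm5 were at 0%. The 10 kb after Gstm6 reach into the body of Gstm7, and the 10 kb before Gstm7 into that of Gstm6. Gained bases of these bodies are therefore part of the flank values 32.2% and 19.4% as well. The next protein-coding genes within 100 kb were covered far less: Eps8l3 at 0%, Ampd2 at 3.76%, Gm12500 at 0%, Gnat2 at 0% and Gnai3 at 0.607%.

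All 5 Foxa2 peaks of the GW4064 list in the window overlapped regions gained with GW4064 in WT, against 5.84% of the peaks of that whole list. The single peak of its vehicle list, in Gstm1, did so too, against 8.06%. Of the 12 merged Foxa2 sites, 10 lay wholly inside these gained regions. The 2 that did not were T09 peaks, beyond the end of Gstm7 and inside Gstm4. The window was chosen for its coverage with GW4064, and these gained regions cover 27.6% of it. The shares of whole lists are therefore not a like baseline, and nothing is read from these overlaps. How many merged Foxa2 sites of the genome lay wholly inside gained regions was not computed.

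**Figure D2:**
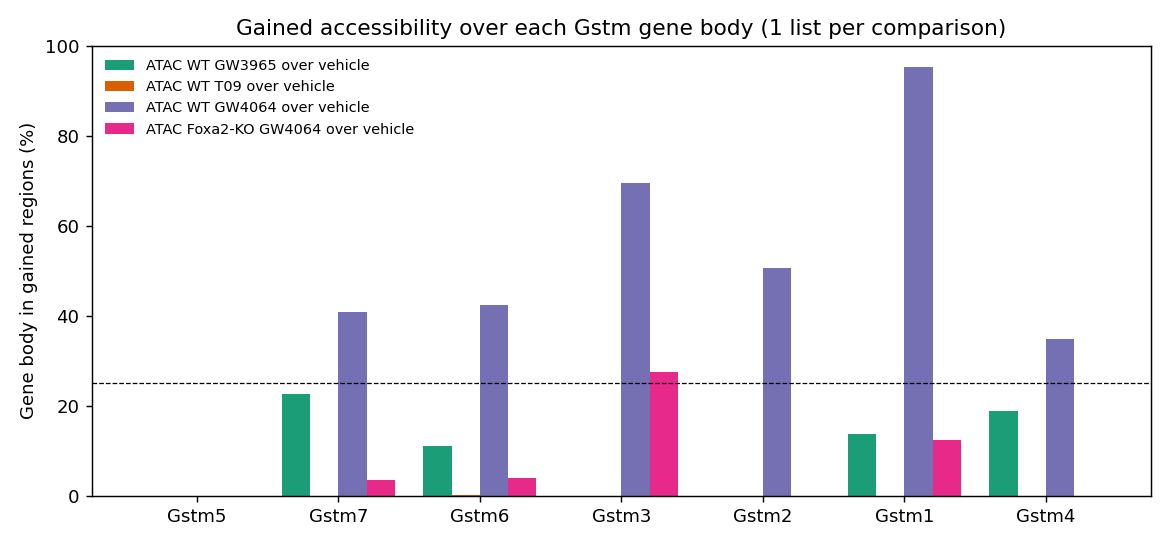
Percent of each gene body inside gained regions (y axis) for the 7 members in genome order, with 1 bar per ATAC comparison and 1 list per bar, so no error is shown; the dashed line is the 25% limit. With GW4064 in WT 6 members are above the line, with Gstm1 at 95.3%, and in the mutant Gstm3 alone is, at 27.5%.

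In the mutant liver the list of regions gained with GW4064 held much less of the cluster. The coverage was 27.5% for Gstm3, 12.3% for Gstm1, 3.84% for Gstm6 and 3.39% for Gstm7, and 0% for Gstm2, Gstm4 and Gstm5. At the 25% limit 1 of 7 members was covered, against 1.66% of all genes and 3.40% of the genes as long. Any base was gained at 4 of 7 members, against 48.0%. The median of the members was 3.39%. The mutant list was longer than that of WT (82561 against 60528 regions) and covered a like stretch of genome (19.4 against 20.8 Mb). The lists were not alike in all respects. The largest q of the mutant list was 0.05, while the WT list has no q and its limit is unknown. The first 500 entries had a median width of 904 bp in the mutant and 1718 bp in WT.

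The 12 regions of the mutant added up to 6861 bases, 4.05% of the window. Of those bases 86.1% were also gained in WT, and they made up 12.6% of the WT bases. Over the genome the lists of both genotypes shared 8.65% of the mutant bases and 8.07% of the WT bases. The WT regions covered 27.6% of the window, and the overlap was not tested against that. The earliest, entry 648 at the far end of Gstm3 (chr3:107963471-107964499), had a ratio of ligand to vehicle of 1.750 and a q of 0.000442 in the authors' deposited table. The region over the start site of Gstm3 (chr3:107968592-107970058) had a ratio of 1.236 and a q of 0.0285 in the authors' deposited table. The region over the far end of Gstm1 (chr3:108011567-108012955) had a ratio of 1.372 and a q of 0.0119 in the authors' deposited table. Gstm3 was thus the member with its start site in a gained region in both genotypes. Of the promoter windows 1 of 12, that of Gstm3, was wholly inside, against 4.07% of all promoters.

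None of the 12 Foxa2 sites touched a region gained in the mutant. Of the 5 Foxa2 peaks of WT with GW4064, 0 did, against 2.58% of that whole list. The Foxa2 peaks are of WT liver, since Foxa2 was not mapped in the mutant.

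Lower coverage in the mutant list was usual for genes covered in WT. Of the 424 genes at 25% or more in WT, 345 (81.4%) were under 25% in the mutant, and of the 6 members 5 (83.3%) were. In the other direction 285 of the 364 genes covered in the mutant (78.3%) were under 25% in WT, and no member was among them. The members' share was close to that of all covered genes. Whether WT and mutant coverage differ beyond the variation between samples could not be tested, with 1 list each.

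**Figure D3:**
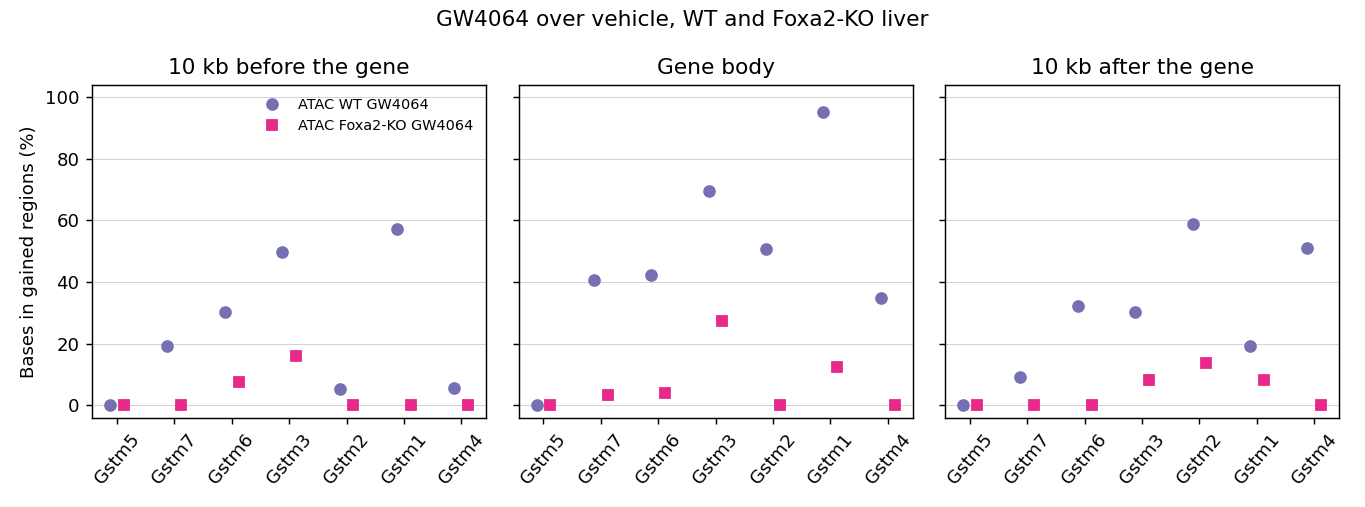
Percent of bases inside regions gained with GW4064 (y axis) in the 10 kb before each gene, in its body and in the 10 kb after it, for WT (circles) and Foxa2-KO (squares), 1 list each. At the body, the WT value exceeds the mutant value at 6 members and both are 0% at Gstm5.

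The LXR agonists gave less coverage than GW4064 in WT, and not the same for both. With GW3965 the coverage was 22.7% for Gstm7, 18.9% for Gstm4, 13.7% for Gstm1 and 11.0% for Gstm6, and 0% for Gstm3, Gstm2 and Gstm5. With T09 it was 0.115% for Gstm6, in a stretch of 17 bases, and 0% for the other members. At the 25% limit 0 of 7 members were covered with GW3965, against 2.26% of all genes and 4.26% of the genes as long. With T09 also 0 of 7 were, against 1.54% and 3.03%. Any base was gained at 4 of 7 members with GW3965, against 43.6% of all genes, and at 1 of 7 with T09, against 43.2%. The members' medians were 11.0% and 0%.

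The order of members differed between the GW4064 and GW3965 lists of WT. Gstm3 and Gstm2, covered at 69.5% and 50.7% with GW4064, were at 0% with GW3965, where Gstm7 and Gstm4 were highest. The GW3965 list held 13 regions (8186 bases, 4.83% of the window) and the T09 list 3 (1200 bases, 0.709%). Of the GW3965 bases 98.9% were also gained with GW4064, which is 17.3% of the GW4064 bases. Over the genome the 2 lists shared 11.5% of the GW3965 bases and 11.2% of the GW4064 bases. The window was chosen for its coverage with GW4064, whose regions in WT cover 27.6% of it. The overlap was not tested against that. GW3965 and T09 shared 34 bases, 0.415% of those of GW3965 and 2.83% of those of T09, against 8.55% and 11.8% over the genome.

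The earliest GW3965 region of the window, entry 683 inside Gstm4 (chr3:108040995-108042002), had a ratio of 1.966 and a q of 2.40e-06 in the authors' deposited table. The region over the start site of Gstm7 (chr3:107930619-107932666) had a ratio of 1.228 and a q of 0.00534 in the authors' deposited table. It contains the TGACAAAGC match printed above. The earliest T09 region, entry 5017, lay just beyond the far end of Gstm4 (chr3:108028623-108029029), with a ratio of 1.944 and a q of 0.00433 in the authors' deposited table. Promoter windows wholly inside gained regions numbered 5 of 12 with GW3965 (at Gstm7, Gstm6 and Gstm4), against 8.81% of all promoters, and 0 of 12 with T09, against 2.16%.

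Of the 10 Foxa2 peaks of the GW3965 list in the window, 5 overlapped regions gained with GW3965 and 5 lay outside, where 75.0% of that whole list lay outside. The 5 that overlapped include the promoter peaks of Gstm7, Gstm6 and Gstm4. Of the 5 Foxa2 peaks with T09, 0 overlapped regions gained with T09, against 3.89%. The Foxa2 site common to all 5 lists, in Gstm1, lay in no region gained with GW3965 or T09, while it lay in one gained with GW4064 in WT.

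Peaks of the nuclear receptors were found for 0 to 2 of 7 members per list. These counts stand beside the share of all genes, and nothing particular to the cluster is read from them. The 5 receptor peaks of the window were 6 to 89 bp wide. FXR, the receptor of GW4064, had 1 peak in WT with GW4064, 15 bp wide at chr3:107974509-107974523. It lies 5342 bp before Gstm3, inside entry 27 of the gained regions of WT, and counts for Gstm3 and Gstm2 (2 of 7 members, against 30.5% of all genes). It was entry 13650 of 22705 in a list deposited without q, whose order has no stated meaning. Among genes as long as the members the share with a peak was 17.5%. FXR had no peak for a member in WT with vehicle (0 of 7, against 13.5%) or in the mutant with GW4064 (0 of 7, against 6.80%). In the mutant with vehicle a 6 bp peak near Gstm5 was counted (1 of 7, against 7.84%). The largest q of both mutant FXR lists was 0.015, while the WT FXR lists have no q and their limit is unknown.

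LXR, which the agonists GW3965 and T09 activate, had 1 peak of 10 bp near Gstm5 in WT with vehicle (1 of 7 members, against 9.38% of all genes and 5.12% of those as long). With the agonist labelled GW in WT it had 1 peak of 11 bp inside Gstm6 (chr3:107940893-107940903), which counts for 2 of 7 members (against 25.5% of all genes and 18.3% of those as long). With T09 in WT no member had one (0 of 7, against 14.6%). In the mutant, LXR had no peak for a member with vehicle (0 of 7, against 0.489%) or with GW (0 of 7, against 16.3%). With T09 it had 1 peak of 89 bp near Gstm2 (1 of 7, against 7.85%). PPAR had no peak at any of the 7 members in its 8 lists. The share of all genes with a peak was 4.12% with vehicle, 0.274% with GW3965, 0.722% with T09 and 4.23% with GW4064 in WT. In the mutant it was 6.73%, 4.56%, 3.64% and 4.54% in the same order. No LXR or FXR peak of the window was shared between lists. With so few and such narrow peaks little sharing could be seen. The share over the whole lists was not computed, and nothing is read from this. Of the 102 genomic regions found in lists of all 4 antibodies, 0 were in the window.

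Gstm1 led the cluster by coverage, and 5 genes elsewhere came closest to it over the 4 ATAC coverages, by the mean absolute difference in percentage points. They were Cdc42ep1 (6.27), Amigo3 (6.55), Camk2n2 (7.20), Rnf186 (7.69) and 2310039H08Rik (7.69). Cdc42ep1, on chromosome 15, was covered at 88.2% in WT with GW4064 and 8.04% in the mutant, and matched Gstm1 in the presence or absence of a peak in 23 of 23 ChIP lists. The other 4 matched in 16 to 21 lists. Likeness over 4 lists says nothing of shared function.

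Other genes of glutathione biology were set beside the members, with the same limit of 25%. Of 15 other cytosolic transferases, 1 reached 25% with GW4064 in WT, 3 with GW3965, 0 with T09 and 0 with GW4064 in the mutant. Gsta3, an alpha-class enzyme, was the gene covered with GW4064, at 67.1% in WT and 0% in the mutant, and it was at 92.4% with GW3965. The pi-class genes Gstp3 (93.1%) and Gstp1 (56.3%) were covered with GW3965 and at 0% with GW4064 in either genotype. Gstt1 and Gstt2, of the theta class, were at 23.6% and 22.3% with GW4064 in WT. Of 4 mitochondrial and microsomal enzymes, Mgst3 reached the limit, at 27.9% with GW4064 in WT.

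Genes that make and recycle glutathione were mostly under the limit. Of 11, 1 was covered with GW3965 (Gpx4, a glutathione peroxidase of lipid peroxides, 25.9%) and 1 with T09 (Gpx1, 29.5%). With GW4064 0 of 11 were covered in either genotype, with Gclc, the catalytic subunit of the first enzyme of glutathione synthesis, at 20.5% in WT. Of 11 genes of the Nrf2 pathway, 3 were covered with GW3965, 0 with T09, 2 with GW4064 in WT and 2 in the mutant. Ephx1, microsomal epoxide hydrolase, was at 29.3% with GW3965, 56.6% with GW4064 in WT and 4.65% in the mutant. Mafg and Maff, small Maf partners of Nrf2, were at 35.5% and 26.0% with GW3965. A further small Maf gene, Mafk, was at 21.2% with GW4064 in WT and 31.2% in the mutant. Srxn1, which reduces oxidised peroxiredoxins, was at 27.9% with GW4064 in WT and 0% in the mutant. Hmox1, heme oxygenase, was at 0% in WT and 27.8% in the mutant. Nfe2l2, the gene of Nrf2 itself, was at 12.6% with GW4064 in WT.

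Of 8 xenobiotic sensors and conjugate exporters, 1 was covered with GW3965 (Nr1i3, which encodes CAR, 52.6%), 1 with T09 and 1 with GW4064 in WT. The latter 2 were the same gene, Abcc2, the canalicular exporter of glutathione conjugates, at 28.4% and 25.6%. A Foxa2 peak in at least 3 of 5 lists was found for 4 of the 7 Gstm members (Gstm3, Gstm2, Gstm1 and Gstm4), against 26.3% of all genes and 17.2% of the genes as long as the members. It was found for 8 of the 15 other cytosolic transferases, 3 of the 4 mitochondrial and microsomal, 6 of the 11 of synthesis, 6 of the 11 of the Nrf2 pathway and 7 of these 8.

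**Figure D4:**
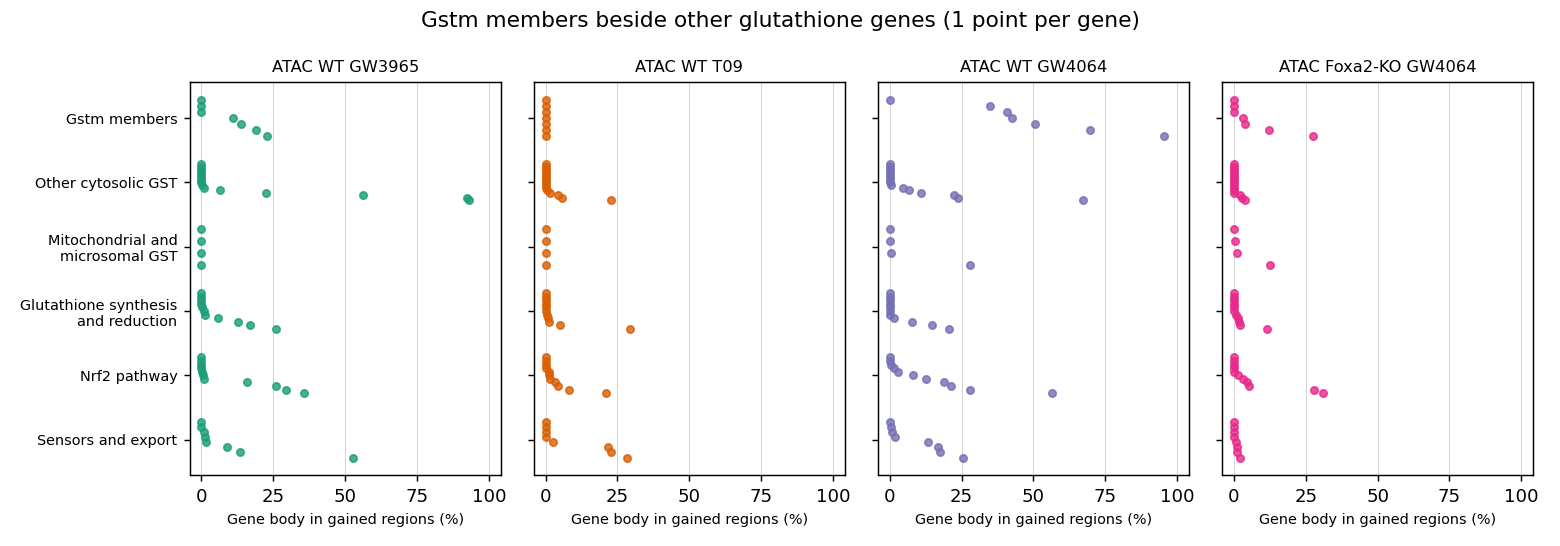
Percent of the gene body in gained regions (x axis) for each Gstm member and each gene of 5 other lists of glutathione biology, 1 point per gene and 1 panel per ATAC list; the offset within a row is for legibility. In the GW4064 panel of WT the points of the 6 covered Gstm members lie between 34.8% and 95.3%, while 1 of 15 other cytosolic transferases is above 25%.

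The liver label was checked against markers of its cell types. Of 10 hepatocyte genes, 4 were covered with GW4064 in WT, against 1.94% of all genes, and 1 in the mutant, against 1.66%. In WT 5 were covered with GW3965, against 2.26% of all genes, and 1 with T09, against 1.54%. A Foxa2 peak in at least 3 lists, found for 26.3% of all genes, was present at 10 of 10 hepatocyte genes. It was also present at 4 of 6 sinusoidal endothelial genes and 1 of 5 cholangiocyte genes, and at 0 of 7 Kupffer and 0 of 6 stellate genes. With GW4064, Alb was at 83.6% and 0%, Apob at 65.7% and 13.8% and Trf at 99.0% and 72.6% in WT and mutant. Cps1 was at 43.4% and 0% and Hnf4a at 16.6% and 0.467%. Apoa1, Ttr, Fga, Ahsg and Cyp2e1 were at 0% with GW4064 in both genotypes. Of these, Apoa1 was at 100% with GW3965 and with T09, and Ttr at 44.6% with GW3965. Fga, Ahsg and Cyp2e1 were at 0% with both LXR agonists too. None of 7 Kupffer, 6 stellate, 6 endothelial and 5 cholangiocyte genes reached 25% in any of the 4 ATAC lists. Coverage past 25% with GW4064 in WT and under 25% in the mutant was therefore found at Alb, Apob and Cps1 as well as at 5 Gstm members. It was not a trait of the hepatocyte genes as a set.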

How the data were processed

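Peak lists were used as the authors deposited them. Reads were aligned to mm10 with BWA, per the submitters' processing notes, which also name STAR, RSEM and edgeR. Peaks were called with PeakSeq against input, or for ATAC-seq with ligand against vehicle, per the series text. The q-value, the ratio (fold over control) and, where present, the −log10 of p of each peak are the authors' own, as deposited. Of the 27 lists 19 carried q, each in order of q. For the 8 that did not (5 of Foxa2, 2 of FXR in WT, and ATAC with GW4064 in WT) the order of entries was kept. Blank entries in the 2 mutant FXR lists (28147 and 7254) were left out.

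From these, peak centres within 10 kb of a gene body were counted, and the percent of each body inside gained regions was computed over 21887 protein-coding genes of RefSeq GRCm38.p6. The limit was 25%, and overlaps needed 1 base. Promoters were those of RefSeq, GRCm38.p6. No test was made, since each group has 1 list. Named genes were the 7 members, protein-coding genes within 100 kb, the 5 genes closest to the most covered member, and up to 3 genes of each list with the largest coverage. Nfe2l2 and the hepatocyte genes were named after their values were seen. The members and lists were chosen with earlier results of these data known. Of the listed genes Gsta13 was not matched. The counting of peaks near genes, the coverage and the overlap steps were tested on simulated peaks. Python 3.11.15, numpy 2.4.6, pandas 2.3.3, biopython 1.88 and matplotlib 3.10.9 were used. Alternatives were a flank of 5 kb, the first 500 entries, coverage limits of 10% and 50%, a q of 0.01 and an overlap of 50%.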

Additional observations from a re-analysis of the deposited data

How the results depend on the processing

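Of 120 alternatives over 37 results, 103 gave a count or number of bases within 1.5 times that of the main setting, and 17 moved. Some counts among the 103 did change. Many of the 103 could hardly move, so the tally does not measure how firm the results are. Lists without a peak in the window had a count of 0, which stricter settings could not change. Leaving out regions found with all 4 antibodies could change nothing, since 0 of them lay in the window. In the first 500 entries of a list the members with a peak numbered 0 for each of the 5 Foxa2 lists, FXR in WT with GW4064, LXR in WT with GW and LXR in the mutant with T09. For the Foxa2 lists and that FXR list, deposited without q, the order has no stated meaning. Within 5 kb the members with a Foxa2 peak numbered 5 with GW3965, 5 with T09 and 3 with GW4064, as Gstm2 dropped out. Within the same 5 kb the count was 0 for FXR in WT with GW4064 and 1 for LXR in WT with GW. At a limit of 10% of the body, 4 members were covered with GW3965 and 2 in the mutant with GW4064. At 50%, 3 were covered in WT with GW4064 and 0 in the mutant. With q of 0.01 or less the mutant count was 0. Under the stricter lists (q of 0.01 or less, or the first part of a list without q) GW3965 and T09 shared 0 bases and the GW4064 lists of both genotypes shared 2167. A pair of alternatives was chosen after seeing the data. With the mutant list shortened to the number of entries of the WT list the count was 1, and with WT regions of 3 kb or less it was 5. No paired analysis was possible because each group was deposited as 1 list and no result comes from a test. For the same reason no replicate could be left out. Depth is unknown, so a missing peak may be below detection.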
